A study of Rattus norvegicus with 12 samples.

Results

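The RV and the LV of the same hypoxic hearts were compared gene by gene. The comparison used 6 of the 12 RNA-seq libraries of the study, namely the RV and the LV of 3 rats (hearts 1, 2 and 4 in the labels), and took every gene at 1 TPM or more (TPM is a transcript level per length, scaled to 1 fixed total in each library) in 3 or more of these 6 libraries. This gave 11828 of 23526 genes with a symbol, of which 10522 were at 1 TPM or more in all 6 libraries, 53 qualified only through the RV and 10 only through the LV. The rats were adult male Sprague-Dawley rats of 3 to 4 months, kept for 2 weeks at 10% O2 in a hypobaric chamber (hypoxia). The other 6 libraries came from 3 rats of the same strain, sex and age kept in room air (normoxia) (11442 genes by the same rule), and served to set the hypoxic RV to LV difference beside that of hearts with no exposure. The RNA came from whole free walls after the atria had been cut off, so each library mixes the RNA of all cell types of the wall. Libraries of the same number within an exposure are the RV and the LV of 1 rat. The p-values rest on a spread between rats shared over all 12 libraries, hypoxic and room air, with 3 rats a group. Except where a block is named, they take the ventricles of a rat as independent and so leave out the pairing.

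Chronic hypoxia narrows the vessels of the lung, and the RV, a thin chamber that normally ejects against low resistance, then works against a higher pressure and thickens, while the LV keeps ejecting into the systemic circulation. In cardiac muscle, mechanical load is sensed at the Z-disc, which anchors the actin filaments, and at the costamere, which ties the sarcomere to the membrane. Load there drives immediate early genes, serum response factor targets, heat shock proteins and the natriuretic peptides. The wall also holds fibroblasts, which lay down matrix, resident macrophages and endothelium, and these cells divide more readily than the adult cardiac myocyte.

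Estimated counts summed to 22538944 to 27293293 in the 6 hypoxic libraries, and mitochondrially encoded RNA took 38.26% to 44.1% of each. The 19 cardiac myocyte markers were present in all libraries, with summed levels from 56444 to 73024 in the RV and from 68877 to 90708 in the LV (TPM divided by the TMM factor of the library, the scale of all levels below; TMM is the edgeR scaling factor for composition). A pair of LV libraries stood apart. The LV library of heart 1 had high levels of some transcripts of the atrial muscle. Myl7, the atrial regulatory light chain, was at 142 (4.82 and 9.23 in the other LV libraries, 2.99 to 15.5 in the RV). Myl4, the atrial essential light chain, was at 236 (16.5 and 23.8, and 11.5 to 27.6). Sln, sarcolipin, was at 75.1 (0.947 and 0.424, and 4.62 to 17.1). The 15 atrial and conduction markers summed to 512 in that library, 66.8 and 95.9 in the other LV libraries and 92.6 to 112 in the RV. Most of the 512 came from Myl7, Myl4 and Sln, so the sum adds little beyond these genes. Nppa, which encodes the atrial peptide, was lowest in that library among the LV libraries (levels below). Whether that library held atrial tissue was not tested. The Postn level of the LV library of heart 1, 61.8, was also far above the 3.33 and 5.42 of the other LV libraries. The LV library of heart 2 was rich in haemoglobin, with Hba-a1 at 16580 against 3260 and 7772 in the other LV libraries and 3188 to 5082 in the RV, and had the lowest TMM factor, 0.853, of a range up to 1.206. On the first principal component of the members, which held 39.3% of the variance, the LV libraries of hearts 2 and 4 lay at -33.3 and -33.7, the LV library of heart 1 at 10.5 and the RV libraries at 28.2, 27.0 and 1.33, so the LV library of heart 1 lay among the RV libraries. The part of these transcripts in the comparisons below was not tested. Counts and medians without 1 of these libraries stand beside the lists where they move.

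**Figure D1:**
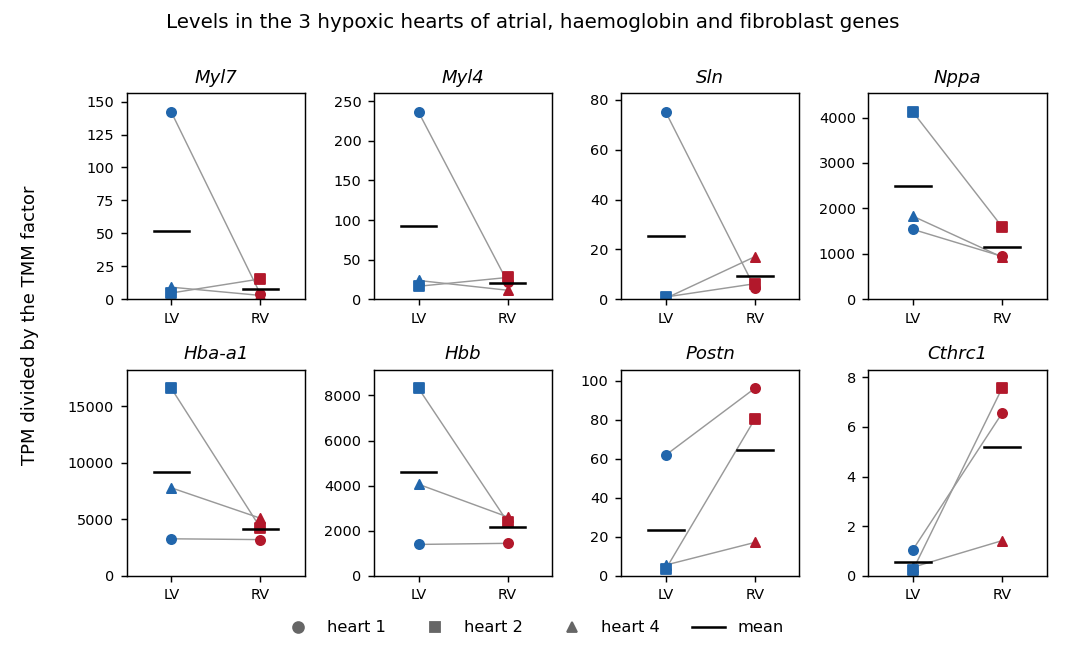
Levels (vertical axis, TPM divided by the TMM factor) of 8 genes in the LV (blue) and RV (red) libraries of the 3 hypoxic hearts, with lines joining the ventricles of a heart and black bars for the mean of 3 libraries. Myl7, Myl4 and Sln stand out in the LV of heart 1, the haemoglobin genes Hba-a1 and Hbb in the LV of heart 2, and Postn is at 61.8 in the LV of heart 1 against 3.33 and 5.42 in the others.

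Between the hypoxic ventricles, 24 genes were higher in the RV (0.174% of the 13756 genes tested) and 38 were lower (0.276%) by edgeR's quasi-likelihood test at an adjusted p under 0.05 (Benjamini-Hochberg), and 61 of these 62 genes were members. The exception, B3gat1, a glucuronyltransferase, was at 0.686, 0.78 and 1.02 in the RV and 0.228, 0.223 and 0.381 in the LV. The changes ran from 0.43 to 4.15 on the log2 scale in size, with medians of 1.02 for the higher and -0.87 for the lower genes. For all 62 genes the 3 RV libraries did not overlap the 3 LV libraries, as was the case for 9.38% of tested genes with the RV above and 8.44% with the LV above. The calls were made on these same libraries, which largely fixes this, so it is no further support for them. Among the called members, Irx1 and Klhl34 qualified only through the LV and Clec4a only through the RV. With the heart as a replicate block, which compares the ventricles within each heart, 102 genes were higher (0.741%) and 155 lower (1.13%). The edgeR adjusted p of these genes lay between 0.0406 and 0.05, so all of them passed close to the threshold. Of the 62 genes, 56 were called by both fits, while Nrep, Aurkb, B3galnt2, Jph2, Bdh2 and Pcbp4 were not called with the block (adjusted p from 0.0517 to 0.0601). Of the genes named below that passed with the block alone, Irx2 qualified only through the LV, and Prnd and Fcgr2b only through the RV. At an unadjusted p under 0.05, 1166 genes were higher and 1134 lower, and the median over all genes was -0.01. Changes of at least 2-fold between RV and LV were found for 329 members in heart 1, 864 in heart 2 and 456 in heart 4.

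The calls rested on few libraries. With the 6 hypoxic libraries alone, in place of a spread shared with the room air libraries, 0 genes passed in either direction, with or without the block. Scaling by library totals moved the median over all genes from -0.01 to 0.129, and 14 of the 62 genes passed. Without the LV library of heart 1, 546 genes passed (330 higher and 216 lower), all 62 among them. That library lay among the RV libraries on the first principal component, so leaving it out sets the groups further apart. The list counts without it, given below, are to be read beside this general rise and are no independent support. Without the RV library of heart 4, 221 passed, 53 of the 62 among them. Without the RV library of heart 1, 3 genes passed (Bdnf, Filip1 and Mest), and without the LV library of heart 2, 2 passed (Enah and Filip1), so that Enah was then the only gene of any list to pass. Without the RV library of heart 2 or the LV library of heart 4, 0 genes passed, and the adjusted p of the 62 genes ran from 0.133 to 0.241 and from 0.0768 to 0.198. The direction of all 62 genes was the same in each of these 6 fits.

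**Figure D2:**
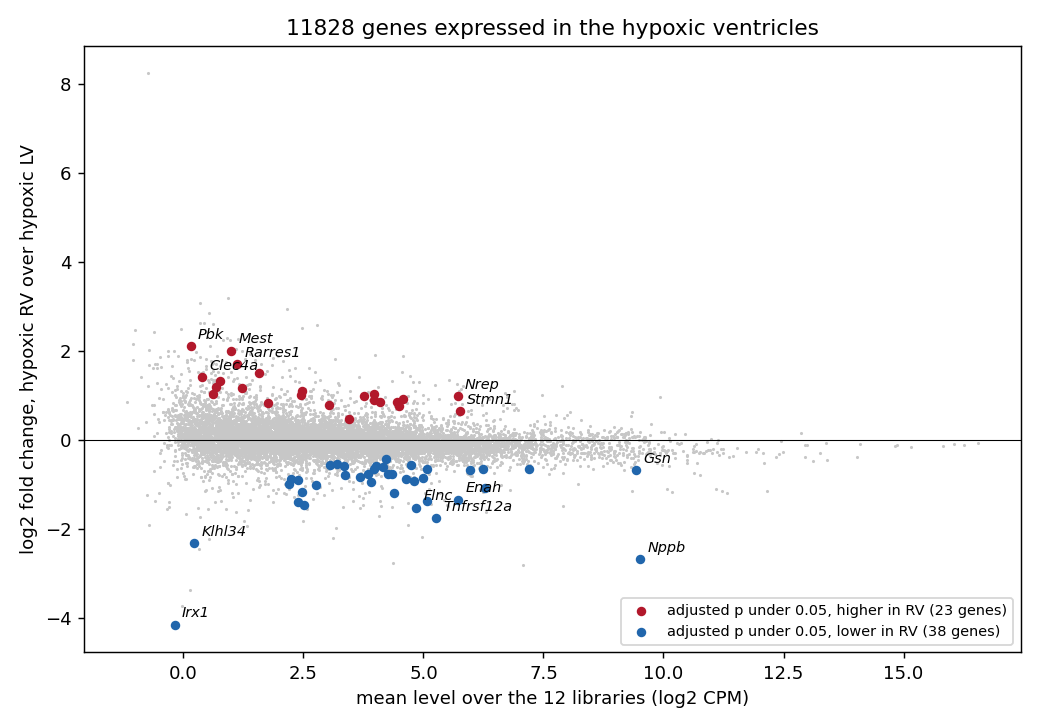
Log2 fold change of the hypoxic RV over the hypoxic LV (vertical axis) against the mean level in log2 CPM (counts scaled to 1 fixed library total, horizontal axis) for the 11828 members, with the 23 members called higher in red and the 38 called lower in blue. Irx1 (-4.15) and Nppb (-2.68) lie lowest among the called genes, and the grey point at the top is the pseudogene Polr2h-ps1, which was at 0 in the 3 LV libraries.

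A natriuretic peptide and a patterning factor had the largest falls among the called genes. Nppb, the precursor of brain natriuretic peptide, was at 212, 257 and 371 in the RV of hearts 1, 2 and 4 and at 1025, 2440 and 1907 in the LV. Every LV library exceeded every RV library, and the log2 fold change was -2.68 ± 0.45 (SE, n = 3 and 3, edgeR adjusted p = 0.0401). Nppa, which encodes the atrial peptide, was at 947, 1598 and 930 in the RV and at 1539, 4119 and 1829 in the LV. It was lower in the RV of each heart, but its groups overlapped and it did not pass (log2 fold change -1.11 ± 0.39, edgeR adjusted p = 0.188, 0.0958 with the block). Npr2, the receptor of C-type natriuretic peptide, was at 5.24, 5.5 and 5.75 in the RV and 6.16, 6.2 and 6.68 in the LV and did not pass (-0.21 ± 0.12, edgeR adjusted p = 0.401). Nppb was the 1 gene of the 7 in the natriuretic peptide system to pass.

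Irx1, an Iroquois homeobox transcription factor, had estimated counts of 3.16, 0.813 and 1.54 in the RV and 30.3, 25.6 and 43.4 in the LV. Summed over the 3 libraries and scaled, the LV level was 19.1 times that of the RV, with a 95% exact interval from 8.47 to 53.3, and the edgeR adjusted p was 0.0442. These estimated counts are TPM times a constant for each library, so the interval is nominal and covers counting error only. Irx2, of the same family, had 1.4, 3.58 and 4.75 estimated counts in the RV and 25.9, 33.3 and 59.8 in the LV (13.8 times, interval 7.24 to 29.5), and passed with the block alone (adjusted p = 0.0493, 0.071 without it). Other Iroquois genes lay closer between the ventricles, with log2 fold changes of -0.43 ± 0.33 for Irx3, 0.14 ± 0.37 for Irx4 and -0.86 ± 0.45 for Irx5. Of the 24 chamber patterning transcription factors tested, Irx1 alone passed (0 higher, 1 lower). In room air the log2 fold changes of Irx1 and Irx2 were -3.37 and -3.29.

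Several genes of the mechanical stress response were lower in the RV. Of 25 stretch and serum response factor targets tested, 4 were lower and 0 higher, 8 lower with the block, and the median log2 fold change was -0.23 (-0.01 over all genes). Flnc, filamin C, an actin crosslinker of the Z-disc and costamere, was at 19, 19.6 and 19.8 in the RV and at 38.6, 75.1 and 54.1 in the LV (log2 fold change -1.52 ± 0.22, edgeR adjusted p = 0.029). Its RV values lay close together and its LV values were widely spread. Enah, an actin-elongating protein, was at 45.6, 45.3 and 38.3 in the RV and at 86.1, 148 and 92.5 in the LV (-1.34 ± 0.18, edgeR adjusted p = 0.0233). Dnajb5, a cochaperone of the Hsp40 family, was at 24.3, 18.6 and 26.3 in the RV and at 51.7, 63.5 and 63.6 in the LV (-1.37 ± 0.16, edgeR adjusted p = 0.0162). Tnfrsf12a, the receptor of the cytokine TWEAK, was at 33, 29.4 and 22.4 in the RV and at 67.9, 144 and 75.9 in the LV (-1.76 ± 0.30, edgeR adjusted p = 0.0442). In these genes the LV of heart 1 was nearest to the RV, and no LV value reached an RV value. Ctgf and Cyr61, matricellular proteins induced by stretch, passed with the block alone, Ctgf at 61.3, 76.2 and 38.7 in the RV and 154, 173 and 212 in the LV (adjusted p = 0.0493, 0.0565 without the block) and Cyr61 at 10.4, 11.6 and 8.85 and 27.7, 39.2 and 48.8 (0.0406, 0.0611 without the block). Without the LV library of heart 2, 1 of the 25 genes passed, and without that of heart 1, 8 were lower and 1 higher.

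Most genes of the Z-disc had negative fold changes. Of 28 genes of the Z-disc, costamere and mechanical stress list, 27 had a negative fold change, 3 were lower by the test (Flnc, Nrap and Xirp1), 8 with the block, 9 without the LV library of heart 1 and 0 without that of heart 2, and 23 were lower in the RV of all 3 hearts, as were 22.3% of all genes. The list median was -0.48 against -0.01 over all genes, and within hearts 1, 2 and 4 it was -0.39, -0.69 and -0.42. The shift was not particular to this list. The 19 cardiac myocyte markers, of which 0 passed, had a median of -0.44, and of -0.35, -0.69 and -0.29 within these hearts. Nrap, which links thin filaments to the cell end, was at 50.5, 56.3 and 62.2 in the RV and at 93.1, 144 and 119 in the LV (-1.07 ± 0.16, edgeR adjusted p = 0.03). Xirp1, an actin-binding repair protein of the intercalated disc, was at 16.6, 18.4 and 21.7 in the RV and at 28.6, 39.8 and 38.8 in the LV (-0.92 ± 0.17, edgeR adjusted p = 0.0463). Csrp3, the muscle LIM protein, and Actn2, the alpha-actinin that crosslinks actin at the Z-disc, passed with the block alone (log2 fold changes -0.79 ± 0.21 and -0.52 ± 0.14, adjusted p = 0.0445 and 0.0495). Klhl34, a kelch-like protein, had the largest fall among called genes after Irx1 and Nppb, at 0.363, 0.361 and 0.515 in the RV and 1.48, 2.84 and 2.01 in the LV (-2.32 ± 0.29, edgeR adjusted p = 0.0196), and was 1 of 16 kelch-like adaptors and atrophy ligases to pass. Jph2, junctophilin 2, which holds the transverse tubule to the sarcoplasmic reticulum, was at 59.4, 48 and 48.5 in the RV and 80.2, 81.3 and 83 in the LV (-0.65 ± 0.11, edgeR adjusted p = 0.045), the only call among 25 calcium handling genes and lost with the block (adjusted p = 0.0529).

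A few immediate early genes, phosphatases and heat shock proteins were lower in the RV as well. Hbegf, a growth factor of the epidermal growth factor family, was at 3.97, 4.47 and 2.59 in the RV and 7.62, 10.9 and 10.9 in the LV (-1.40 ± 0.24, edgeR adjusted p = 0.0442), and Ier5, an immediate early gene, at 17.7, 15.3 and 14.5 and 26.7, 38.2 and 44.6 (-1.20 ± 0.19, edgeR adjusted p = 0.0369). These were the 2 calls, both lower, among 26 immediate early and growth factor response genes, of which 23 had a negative fold change (median -0.29). With the block 6 were lower, Atf3 among them, a stress-induced transcription factor at 5.89, 4.53 and 3.99 in the RV and 21.1, 11.7 and 33.4 in the LV (adjusted p = 0.0448, 0.071 without the block). Dusp8, a phosphatase that switches off stress-activated kinases, was at 4.74, 3.12 and 3.08 in the RV and 11.3, 8.84 and 9.65 in the LV (-1.45 ± 0.24, edgeR adjusted p = 0.042), the only call among 11 MAP kinase phosphatases. Of 29 heat shock proteins and cochaperones, 25 had a negative fold change, 2 were lower (Dnajb5 and Hspa1l), 4 with the block, 7 without the LV library of heart 1 and 0 without that of heart 2, and the median was -0.36 (-0.22 without the LV library of heart 2). Hspa1l, an Hsp70 protein, was at 5.19, 3.8 and 4.83 in the RV and 8.66, 12.8 and 9.31 in the LV, and the inducible Hsp70 gene Hspa1a at 4.8, 2.16 and 2.14 and 11, 13.1 and 7.94. Hspa1l passed without the block (-1.16 ± 0.19, edgeR adjusted p = 0.0373) and Hspa1a with the block alone (-1.81 ± 0.36, adjusted p = 0.0406, 0.0618 without it). These Hsp70 genes are closely related in sequence, so the division of reads between them is uncertain.

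**Figure D3:**
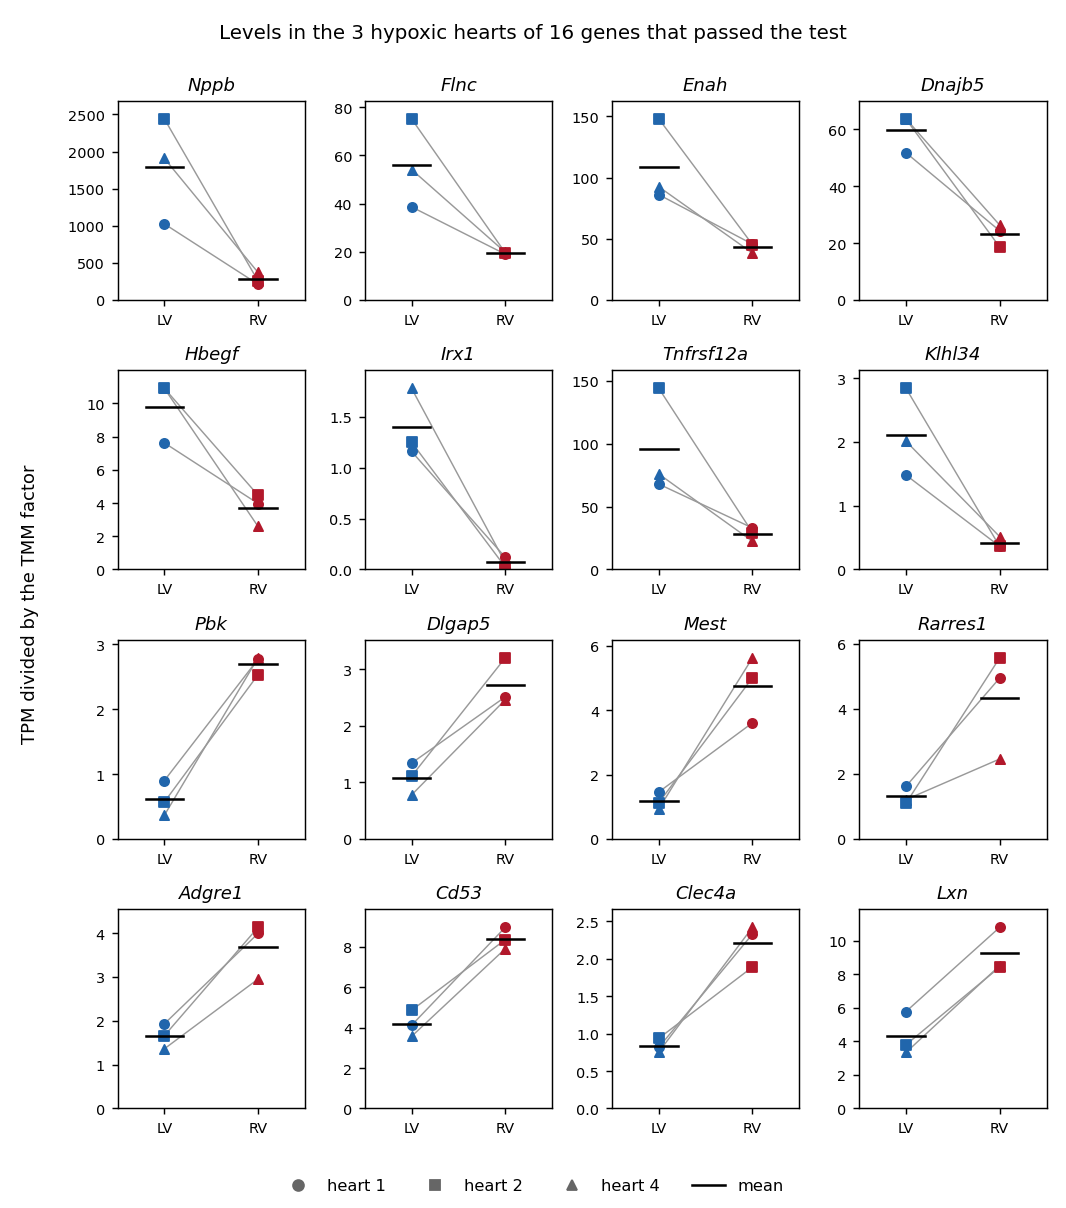
Levels (vertical axis, TPM divided by the TMM factor, from 0) of 16 genes called between the hypoxic ventricles, in the LV (blue) and RV (red) libraries of hearts 1, 2 and 4, with lines joining the ventricles of a heart and black bars for the mean of 3 libraries. The upper 8 genes fall from LV to RV in every heart and the lower 8 rise in every heart, as for Nppb (1025 to 212, 2440 to 257 and 1907 to 371) and Pbk (0.9 to 2.77, 0.57 to 2.53 and 0.365 to 2.79).

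Promoter sequences are shown for the called list genes with the smallest p in each direction that the RefSeq table holds, to set their sequence beside their values. The 250 bases before the start site are given 5′ to 3′ on the gene's strand from RefSeq, build GRCr8, which is not the build of the transcriptome behind the counts. Capitals mark matches, on either strand, to 7 motifs. These were the CCAAT box, the GC box GGGCGG and the CArG box of serum response factor. For the cell cycle element both TTTGAA and the form TTCGAA were searched. The core TGACGT of the cyclic AMP response element was included. The AP-1 site TGACTCA was the last. Genes lower in the RV come first.
Dnajb5 (chr5:61972456-61972705, plus strand): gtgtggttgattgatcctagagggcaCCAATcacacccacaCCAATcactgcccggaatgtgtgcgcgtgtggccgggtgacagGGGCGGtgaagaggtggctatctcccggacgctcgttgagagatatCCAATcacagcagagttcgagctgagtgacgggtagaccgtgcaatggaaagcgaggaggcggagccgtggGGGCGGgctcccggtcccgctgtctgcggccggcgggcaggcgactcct
Klhl34 (chrX:40969122-40969371, minus strand): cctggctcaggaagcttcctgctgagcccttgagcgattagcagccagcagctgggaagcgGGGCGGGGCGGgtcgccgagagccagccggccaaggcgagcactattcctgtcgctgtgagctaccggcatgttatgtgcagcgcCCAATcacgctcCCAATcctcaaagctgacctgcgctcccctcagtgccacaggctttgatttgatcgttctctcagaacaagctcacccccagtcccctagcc
Enah (chr13:96269797-96270046, minus strand): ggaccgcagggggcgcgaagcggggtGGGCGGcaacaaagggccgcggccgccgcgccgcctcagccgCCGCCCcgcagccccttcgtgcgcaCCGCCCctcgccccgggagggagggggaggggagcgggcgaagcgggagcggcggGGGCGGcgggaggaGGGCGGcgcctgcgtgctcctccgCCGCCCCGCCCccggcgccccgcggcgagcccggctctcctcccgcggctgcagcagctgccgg
Cd53 (chr2:197087897-197088146, minus strand): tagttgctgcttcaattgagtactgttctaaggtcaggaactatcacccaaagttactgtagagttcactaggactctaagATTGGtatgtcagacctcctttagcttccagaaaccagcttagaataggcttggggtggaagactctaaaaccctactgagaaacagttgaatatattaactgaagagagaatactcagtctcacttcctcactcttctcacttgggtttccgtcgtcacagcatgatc
Dlgap5 (chr15:23144177-23144426, minus strand): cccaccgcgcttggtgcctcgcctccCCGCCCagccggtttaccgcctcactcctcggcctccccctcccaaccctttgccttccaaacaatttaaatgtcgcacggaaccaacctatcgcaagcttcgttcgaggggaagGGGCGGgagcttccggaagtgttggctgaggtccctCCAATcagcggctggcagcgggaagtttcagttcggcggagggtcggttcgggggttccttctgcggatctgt
Adgre1 (chr9:2329190-2329439, plus strand): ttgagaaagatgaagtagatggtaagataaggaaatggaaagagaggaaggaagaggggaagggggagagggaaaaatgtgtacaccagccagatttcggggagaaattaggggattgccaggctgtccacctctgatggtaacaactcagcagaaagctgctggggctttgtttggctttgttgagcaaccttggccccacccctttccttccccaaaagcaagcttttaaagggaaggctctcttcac

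Enah has 2 starts in the table, of which the first is printed, and the motif windows can overlap. The Dnajb5 window holds 3 CCAAT and 2 GGGCGG matches, that of Klhl34 2 of each with its GC boxes overlapping by a base, and that of Enah 7 GGGCGG matches. The Cd53 window has 1 CCAAT match, that of Dlgap5 1 CCAAT and 2 GGGCGG, and that of Adgre1 none of the motifs. Over the 27457 promoters of the table, cut to the same length, CCAAT is found in 34.3%, GGGCGG in 32.4%, TTTGAA in 16%, TGACGT in 7.25%, TGACTCA in 3.98%, and TTCGAA and the CArG box in 1.5% each. Of the 38 genes lower in the RV, 30 had a promoter in the table, with GGGCGG in 15, CCAAT in 8, TGACGT in 5, TTTGAA in 3, TGACTCA in 1 and the CArG box in 0. Of the 24 higher, 19 had one, with CCAAT in 8, GGGCGG in 8, TTTGAA in 1 and each of the other motifs in 0. These are counts of letters in a short window, and say nothing of binding.

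Transcripts of the cardiac myocyte and of its oxidative metabolism had small negative fold changes, almost none of which passed. All 19 cardiac myocyte markers were lower in the RV of all 3 hearts (as were 22.3% of all genes), with log2 fold changes from -0.79 to -0.26 and a median of -0.44, yet 0 passed the test, 3 passed with the block and 4 without the LV library of heart 1. In bulk tissue, fewer cells of a type and less RNA of it per cell cannot be told apart. Actc1, cardiac alpha-actin, was at 8985, 9613 and 10403 in the RV and 11468, 15304 and 12701 in the LV (-0.44 ± 0.14, edgeR adjusted p = 0.146). Of the myosin heavy chains, the fast Myh6 was at 782, 485 and 1124 in the RV and 1251, 906 and 1830 in the LV, and the slow Myh7 at 779, 993 and 880 and 1355, 1813 and 2763. Both were lower in the RV of each heart (-0.74 ± 0.37 and -1.16 ± 0.37), and neither passed (edgeR adjusted p = 0.351 and 0.156). Skeletal alpha-actin, Acta1, a marker of the fetal programme, was at 850, 2800 and 1508 in the RV and 941, 3377 and 1049 in the LV, which overlap (-0.06 ± 0.53, and 0.21 when scaled by library totals).

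Among 30 genes of fatty acid uptake and oxidation, 28 had a negative fold change and 24 were lower in all 3 hearts (as were 22.3% of all genes), with a median of -0.37. Of these, 0 passed without the block, 1 with it and 6 without the LV library of heart 1. Acadm, the medium-chain acyl-CoA dehydrogenase, was at 389, 324 and 486 in the RV and 496, 656 and 683 in the LV (-0.61 ± 0.16, edgeR adjusted p = 0.101). All 42 nuclear genes of the respiratory chain and ATP synthase had negative fold changes, from -0.41 to -0.10 with a median of -0.26, and 0 passed in either fit. In the citric acid cycle list the median was -0.27 over 27 genes, and Sdha, a subunit of succinate dehydrogenase, passed with the block alone (-0.45 ± 0.13, adjusted p = 0.0494). These medians differed between hearts. For the respiratory chain they were -0.12 in heart 1, -0.63 in heart 2 and -0.03 in heart 4, and the median was -0.14 without the LV library of heart 2. The 13 transcripts of the mitochondrial genome had a median of -0.08 and 0 were called. HIF targets (17 genes, median -0.08) and glycolysis genes (25 genes, median -0.12) gave 0 calls in either direction in either fit, and their medians were 0.05 and 0.04 when scaled by library totals.

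Most leukocyte and macrophage transcripts had positive fold changes, and a few passed. Of 22 macrophage and monocyte markers tested, 21 had a positive fold change and 2 were higher by the test, Adgre1 and Aif1, 5 with the block, 12 without the LV library of heart 1 and 0 without that of heart 2 (median then 0.65). The median was 0.82, and 19 were higher in the RV of all 3 hearts, as were 21.8% of all genes. For 12 the RV libraries all lay above the LV libraries, against 9.38% of all genes. Adgre1, an adhesion receptor that marks macrophages, was at 3.99, 4.13 and 2.95 in the RV and 1.93, 1.66 and 1.36 in the LV (1.16 ± 0.20, edgeR adjusted p = 0.0442). Aif1, the macrophage protein Iba1, was at 22.4, 23.4 and 17.4 in the RV and 11.4, 11.3 and 9.26 in the LV (0.98 ± 0.18, edgeR adjusted p = 0.0481). Clec4a, a lectin on myeloid cells, was at 2.33, 1.89 and 2.42 in the RV and 0.817, 0.937 and 0.755 in the LV (1.42 ± 0.21, edgeR adjusted p = 0.0293). Folr2, a folate receptor of resident macrophages, was at 14.8, 9.83 and 11.1 and 6.76, 3.96 and 5.71, and passed with the block alone (adjusted p = 0.0479, 0.0627 without it), as did the inhibitory antibody receptor Fcgr2b and the interferon-inducible Mnda (adjusted p = 0.0492 and 0.0406). The LV of heart 1 had the highest summed level of the macrophage markers in the LV, 289, against 186 at the lowest, with 345 to 528 in the RV.

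All 20 pan-leukocyte genes had a positive fold change, with a median of 0.52, and 2 were higher by the test, 4 without the LV library of heart 1 and 0 without that of heart 2. Cd53, a tetraspanin of leukocytes, was at 8.97, 8.36 and 7.91 in the RV and 4.12, 4.86 and 3.57 in the LV (1.01 ± 0.15, edgeR adjusted p = 0.0293). Laptm5, a lysosomal protein of leukocytes, was at 14.2, 13.4 and 12.8 in the RV and 10, 9.66 and 9.19 in the LV (0.48 ± 0.09, edgeR adjusted p = 0.0456), with within-heart differences of 0.49, 0.47 and 0.48. Ptprc, which encodes CD45, was at 2.75, 2.83 and 2.56 in the RV and 1.98, 2.19 and 2.36 in the LV. Its groups did not overlap, but it did not pass (0.32 ± 0.15, edgeR adjusted p = 0.316). Cd14, a coreceptor for lipopolysaccharide, and Cd33, a sialic acid lectin of myeloid cells, did not pass either (0.48 ± 0.28 and 1.53 ± 0.47, edgeR adjusted p = 0.424 and 0.14). Ccl19, a chemokine that draws lymphocytes and dendritic cells, passed with the block alone, at 8.35, 8.99 and 7.79 in the RV and 4.11, 3.23 and 1.85 in the LV (adjusted p = 0.0406, 0.0732 without it).

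All 15 genes of the MHC class II list had positive fold changes (median 0.57) and 21 of 26 complement and coagulation genes did (median 0.71). None of either list passed without the block, and 2 and 3 were higher with it. Without the LV library of heart 1, 2 and 6 were higher, and without that of heart 2, 0 passed. RT1-Da, a class II alpha chain, was at 54.8, 64.5 and 37.2 in the RV and 22.9, 34.4 and 25.1 in the LV (0.93 ± 0.22, edgeR adjusted p = 0.081), and C1qa, a chain of the first complement component, at 65.2, 53 and 40.6 and 35.6, 18.2 and 24.1 (1.02 ± 0.25, edgeR adjusted p = 0.0932). Lymphocyte and mast cell markers gave few calls. Of 16 T and NK cell markers 5 had a positive fold change (median -0.06, and 0.08 when scaled by library totals) and Cd4, which macrophages of the rat also carry, was the 1 higher with the block (0.96 ± 0.22, adjusted p = 0.0492). Of the 10 mast cell and neutrophil markers tested 0 passed in either fit, with the mast cell proteases Cpa3 at 2.54, 4.26 and 1.44 in the RV and 0.578, 1.11 and 0.644 in the LV (1.83 ± 0.44, edgeR adjusted p = 0.091) and Cma1 at 3.61, 4.81 and 2.02 and 0.504, 1.27 and 1.05 (1.90 ± 0.52, edgeR adjusted p = 0.114).

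Cell division transcripts had positive fold changes in the hypoxic RV, and few passed. All 51 tested genes of the mitosis and cytokinesis list, of which 40 were members, had a positive fold change, with a median of 1.61. Of the 51, 47 were higher in the RV of all 3 hearts (as were 21.8% of all genes). For 44 the RV libraries lay above all LV libraries, as for 9.38% of all genes. By the test 3 were higher and 0 lower, Pbk, Dlgap5 and Aurkb. Pbk, a mitotic kinase, was at 2.77, 2.53 and 2.79 in the RV and 0.9, 0.57 and 0.365 in the LV (2.12 ± 0.31, edgeR adjusted p = 0.0284). Dlgap5, which stabilizes spindle microtubules, was at 2.51, 3.2 and 2.46 in the RV and 1.34, 1.11 and 0.778 in the LV (1.33 ± 0.22, edgeR adjusted p = 0.0373). Aurkb, the kinase of the chromosomal passenger complex, was at 2.43, 3.5 and 2.82 in the RV and 1.56, 0.908 and 1.26 in the LV (1.20 ± 0.21, edgeR adjusted p = 0.0457, 0.0594 with the block). For each of these genes the LV of heart 1 had the highest value of the LV libraries. The list median was 0.50 in heart 1, 2.14 in heart 2 and 2.44 in heart 4. Without the LV library of heart 1 it was 2.44 and 39 of the 51 genes passed, where 330 genes were higher over all genes. Without that of heart 2 it was 1.42 and 0 passed. The summed levels of the macrophage, fibroblast and activated fibroblast markers were also highest in the LV library of heart 1 among the LV libraries (289, 2037 and 225).

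Of 41 genes of DNA replication and G1/S, 39 had a positive fold change (median 0.54) and 0 passed in either fit, with 4 higher without the LV library of heart 1. Mcm3, a subunit of the replicative helicase, was at 1.84, 1.86 and 2.61 in the RV and 1.08, 1.01 and 0.803 in the LV (1.11 ± 0.24, edgeR adjusted p = 0.0681). Pttg1, securin, and Cks2, a subunit of cyclin-dependent kinases, were among the genes called with the block alone, Pttg1 at 3.26, 4.16 and 3.68 in the RV and 1.64, 1.19 and 0.54 in the LV (adjusted p = 0.0493, 0.071 without it) and Cks2 at 11, 13.2 and 7.03 and 4.47, 3.83 and 0.914 (adjusted p = 0.0406, 0.0932 without it). Cdkn2c, the inhibitor p18 of G1 kinases, was higher with the block as well, at 8.64, 8.69 and 6.81 and 5.72, 3.27 and 3.43 (0.95 ± 0.21, adjusted p = 0.0448). Stmn1, stathmin, which destabilizes microtubules, was called at a far higher level, 74.9, 85.5 and 80.8 in the RV and 51.1, 52 and 50.6 in the LV (0.65 ± 0.10, edgeR adjusted p = 0.0359).

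Most fibroblast and matrix transcripts had positive fold changes, with a wide spread between hearts. Of 15 fibroblast markers 13 had a positive fold change (median 0.73), of 14 activated fibroblast markers 12 (0.87), of 20 collagen chains 18 (0.41) and of 39 matrix glycoproteins and proteoglycans 36 (0.68). By the test 0 genes of these lists were higher, and with the block 2, 1, 0 and 4 were. Cthrc1, a secreted protein of activated fibroblasts, was at 6.55, 7.56 and 1.41 in the RV and 1.05, 0.231 and 0.338 in the LV (3.20 ± 0.73, adjusted p = 0.0493 with the block, 0.0753 without it). Thy1, a surface protein of fibroblasts, was at 10.7, 9.78 and 5.24 and 4.82, 1.02 and 1.18 (1.85 ± 0.51, adjusted p = 0.0492 with the block, 0.119 without it). Col3a1, the chain of type III collagen, was at 475, 613 and 266 in the RV and 283, 146 and 158 in the LV, which overlap (1.21 ± 0.30, edgeR adjusted p = 0.0931). Postn, periostin, was at 96, 80.2 and 17 in the RV and 61.8, 3.33 and 5.42 in the LV (1.45 ± 0.99, edgeR adjusted p = 0.501). In Col3a1 and Postn the RV of heart 4 was below the LV of heart 1. Medians of the activated fibroblast list were 0.15 in heart 1, 1.95 in heart 2 and 0.59 in heart 4, with 1.58 and 5 higher without the LV library of heart 1, and 0.61 and 0 called without that of heart 2. For the fibroblast, collagen and matrix lists the medians were 1.01, 0.86 and 1.09 without the LV library of heart 1, with 6, 5 and 11 genes higher, and 0.62, 0.24 and 0.54 without that of heart 2, with 0 called.

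Of the 2 fibroblast markers with a negative fold change, 1 passed. Gsn, gelsolin, which severs actin filaments and is made by myocytes as well, was at 439, 429 and 472 in the RV and 672, 661 and 810 in the LV (-0.68 ± 0.10, edgeR adjusted p = 0.0293). It was the only call in the fibroblast list, with within-heart differences of -0.62, -0.62 and -0.78. Of 14 endothelial markers 4 were positive, with a median of -0.05 (0.09 when scaled by library totals). Of them Flt1, a receptor of vascular endothelial growth factor, passed with the block alone, at 7.21, 5.21 and 6.75 in the RV and 12, 10.4 and 12.1 in the LV (-0.86 ± 0.17, adjusted p = 0.0406, 0.0625 without it).

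Several called genes belong to none of these groups. Mest, an imprinted gene of the hydrolase fold expressed in growing tissue, was at 3.61, 5.01 and 5.63 in the RV and 1.46, 1.13 and 0.937 in the LV (2.01 ± 0.25, edgeR adjusted p = 0.0205). Rarres1, induced by retinoic acid, was at 4.95, 5.57 and 2.46 in the RV and 1.62, 1.1 and 1.21 in the LV (1.71 ± 0.28, edgeR adjusted p = 0.0373). Lxn, latexin, an inhibitor of carboxypeptidases, was at 10.8, 8.43 and 8.52 in the RV and 5.78, 3.8 and 3.34 in the LV (1.10 ± 0.20, edgeR adjusted p = 0.0457). Itm2a, an integral membrane protein, was at 27.2, 31.2 and 17.5 in the RV and 14, 11.9 and 11.2 in the LV, and Nrep, a neuronal regeneration protein also made by fibroblasts, at 81.9, 91.3 and 77.3 and 46.8, 41.7 and 37.3. Both passed (edgeR adjusted p = 0.0463 for each). Prnd, the prion-like protein doppel, passed with the block alone, at 2.88, 4.47 and 2.54 in the RV and 0.439, 0.755 and 0.457 in the LV (2.63 ± 0.57, adjusted p = 0.0448, 0.071 without it). In the lower direction Filip1, a filamin-interacting protein, had one of the smallest errors, at 11, 10.5 and 9.47 in the RV and 18.2, 17.5 and 19.7 in the LV (-0.84 ± 0.09, edgeR adjusted p = 0.0162). Penk, proenkephalin, was at 91.7, 25.1 and 23.9 in the RV and 274, 419 and 294 in the LV, the widest gap of the nerve list, and did not pass (-2.81 ± 0.67, edgeR adjusted p = 0.0853, 0.0505 with the block). The metallothionein Mt1 was at 55.8, 34.1 and 74.1 and 107, 108 and 153, and passed with the block alone (-1.17 ± 0.30, adjusted p = 0.0406, 0.104 without it).

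**Figure D4:**
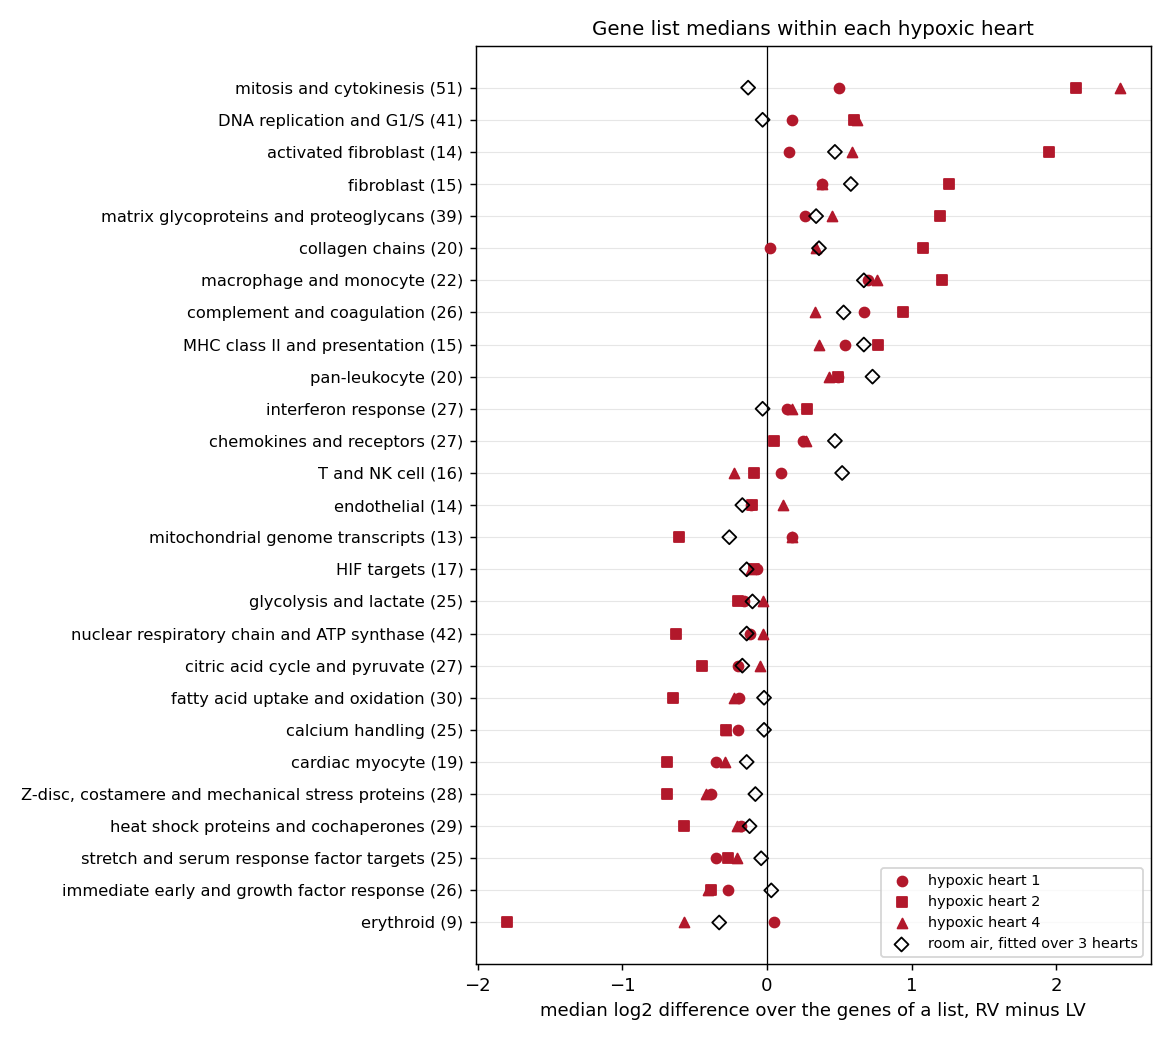
Median log2 difference, RV minus LV, over the tested genes of 27 gene lists (number of genes in parentheses) in hypoxic hearts 1 (circles), 2 (squares) and 4 (triangles), and the median fitted fold change in room air (open diamonds). The mitosis list is at 0.50, 2.14 and 2.44 in the hypoxic hearts against -0.13 in room air, while the macrophage list has a median of 0.67 in room air and the erythroid list lies at -1.80 in heart 2.

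The RV to LV difference in hypoxia was set beside that in room air, where other rats were measured. The test of the difference between the exposures called 0 of 13756 genes (0%) by edgeR's quasi-likelihood test, also with the heart as a block. At an unadjusted p under 0.05 there were 1046 genes, 541 with a higher RV to LV ratio in hypoxia and 505 with a lower one. The likelihood ratio test of edgeR called 28 genes and DESeq2 17, and without the LV library of heart 1 the quasi-likelihood test called 13. Of the 24 genes higher in the hypoxic RV, 15 had a positive fold change in room air, where 51.1% of all genes did, and of the 38 lower genes 33 had a negative one. Their medians in room air were 0.28 and -0.32.

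Called leukocyte genes and Nppb had the same sign under both exposures. For Laptm5 they were 0.48 ± 0.09 in hypoxia and 0.66 ± 0.09 in room air, for Cd53 1.01 and 0.74, for Adgre1 1.16 and 0.90 and for Nppb -2.68 and -3.05. Clec4a had the larger fold change in room air, 2.41 against 1.42. The medians of the macrophage list were 0.82 in hypoxia and 0.67 in room air, and those of the MHC class II list 0.57 and 0.67. The called mechanical stress and cell division genes had values nearer 0 in room air. They were picked by the hypoxic test, which by itself favours larger values in hypoxia. For Flnc the fold change was -0.40 in room air, for Hbegf -0.26, for Xirp1 -0.02, for Dlgap5 -0.31 and for Pbk 0.29. Tnfrsf12a, Dusp8, Enah and Nrap lay further below 0 in room air, at -0.90, -0.68, -0.66 and -0.56. The mitosis list had a median of -0.13 in room air and a median difference of 1.71. Of its 51 genes, 33 had an unadjusted p under 0.05 for a higher RV to LV ratio in hypoxia, as had 541 of all 13756. In the Z-disc list, 10 of 28 genes had such a p for a lower ratio in hypoxia, as had 505 of all genes, and 0 for a higher one. Genes of a list were measured in the same few hearts, so they are not separate observations. None of these single genes passed with adjustment over all genes, and the likelihood ratio test called Dlgap5 among those named here.

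The genes with the smallest p of this test included Gsn and Gimap4. Gsn had a fold change of -0.68 ± 0.10 in hypoxia and 0.28 ± 0.10 in room air, a difference of -0.96 ± 0.14 (edgeR adjusted p = 0.228), and passed by DESeq2 and the likelihood ratio test. Gimap4, a GTPase of lymphocytes and endothelium, had 0.43 ± 0.08 and -0.41 ± 0.08 (difference 0.84 ± 0.12, edgeR adjusted p = 0.228), and passed by the same 2 tests. Nppa had -1.11 ± 0.39 in hypoxia and -4.19 ± 0.44 in room air (difference 3.08 ± 0.56, edgeR adjusted p = 0.504), and was called by both of the other tests. Stmn1 (0.65 and -0.06) and Fxyd6, a regulator of the sodium pump (0.85 and -0.12), had the same adjusted p of 0.504, and both passed by the other 2 tests. Sik3, a salt-inducible kinase, had -0.57 ± 0.08 and 0.12 ± 0.08 (difference -0.69 ± 0.12, edgeR adjusted p = 0.495), and passed by the likelihood ratio test.

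**Figure D5:**
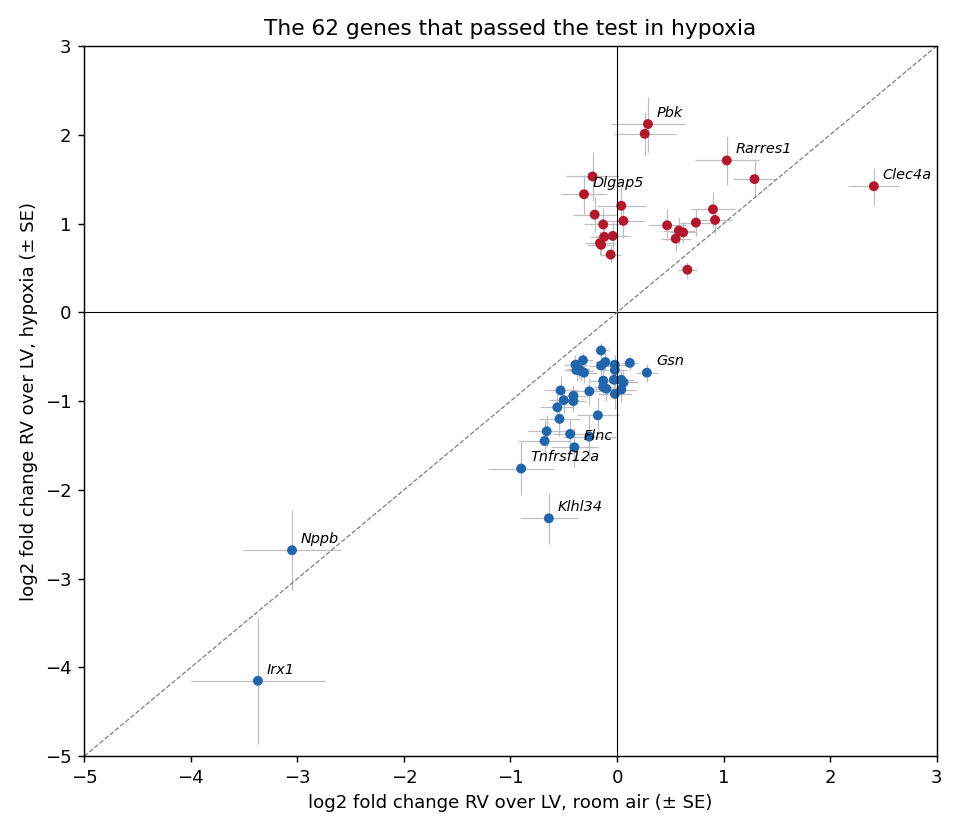
Log2 fold change RV over LV in hypoxia (vertical axis) against that in room air (horizontal axis) for the 62 genes called in hypoxia, with bars of 1 standard error and the line of equal values dashed. Nppb (-2.68 and -3.05) and Irx1 (-4.15 and -3.37) lie near the line, Klhl34 (-2.32 and -0.64) and Pbk (2.12 and 0.29) away from it, and Gsn has opposite signs (-0.68 and 0.28).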

How the data were processed

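RNA of the free walls of the RV and the LV of 6 rats was sequenced from polyadenylated RNA with a stranded kit, and the 12 libraries shared 1 lane. The authors checked the reads with FastQC, quantified them with kallisto 0.43.1 against the Ensembl transcriptome of Rnor 6.0 and used tximport to obtain gene values. For every gene and library the authors deposited TPM and estimated counts. The deposited estimated counts equal TPM times a constant for each library (relative spread 8.8e-13), so they are nominal depths and not reads per gene. The edgeR and DESeq2 fits took them as counts, so the SE and p-values of these fits rest on nominal depths too. How far this moves them was not tested. Entries with a number for a symbol (27 of 23553, 0.0408% to 0.0621% of a library) were left out.

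Estimated counts were rounded, filtered with filterByExpr (13756 genes), scaled by TMM and fitted over 12 libraries in edgeR 4.0.16 (R 4.3.3) with 4 group means and 8 residual degrees of freedom, using its quasi-likelihood test and Benjamini-Hochberg adjustment over all genes tested. A second contrast took the RV to LV difference in hypoxia minus that in room air. SE was taken from the log2 fold change and the root of its F. The fit was tested on simulated data. Levels are TPM divided by the TMM factor, and overlap was judged on TMM-scaled CPM. The ventricles of a heart pair by animal, with correlations of deviations from the group means of 0.173, 0.089 and 0.213 within hearts 1, 2 and 4 and at most 0.042 between hearts. The heart as replicate block was an alternative, since the study's methods name none. Other alternatives were scaling by RLE (the size factors of DESeq2) or library totals, the likelihood ratio test, DESeq2 1.42.0, filters, limma 3.58.1 on log2(TPM + 1) and log2(TPM + 0.1), the 6 hypoxic libraries alone, and leaving out libraries or hearts.

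The 56 gene lists hold 1127 symbols found in the table, and 27 others were not matched. Lists were counted over the 1029 of these that were tested, whether or not they were members. Members were 40 of the 51 mitosis genes tested, 32 of the 41 DNA replication genes and 8 of the 16 T and NK cell markers. Genes were named by rule, as up to 12 with the largest called change in each direction without overlap, up to 8 called only with the block, up to 4 of each list and up to 5 by the difference test with the smallest p, and 10 set genes. B3gat1, B3galnt2, Bdh2, Pcbp4, Bdnf, Irx3, Irx4, Irx5, Sln, Hbb and Polr2h-ps1 were chosen after their values were seen. The members and lists were chosen with earlier results of these data known. Results for some genes are not reported here.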

Additional observations from a re-analysis of the deposited data

How the results depend on the processing

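Counts of genes higher and lower in the hypoxic RV (24 and 38) were 5 and 9 with library totals, 271 and 229 by edgeR's likelihood ratio test, 235 and 280 by the Wald test of DESeq2, 13 and 21 without a filter, 43 and 61 with the TPM filter, 58 and 24 by limma on log2(TPM + 1), 6 and 12 on log2(TPM + 0.1), 102 and 155 with the heart as replicate block, and 0 and 0 with the 6 hypoxic libraries alone, with or without the replicate block. RLE gave 23 and 35. Leaving out 1 library or heart gave 0 to 330 higher and 0 to 216 lower. For the difference between exposures (0 and 0), the likelihood ratio test gave 19 and 9, DESeq2 12 and 5, and leaving out 1 library or heart 0 to 11 and 0 to 2. The cause of these shifts was not tested. Fits that leave out a library assume that the remaining pair varies like the other groups. Of the 62 calls, DESeq2 and edgeR's likelihood ratio test made all 62, RLE 58, the TPM filter 61, the fit without a filter 34, limma 37 and 17, and library totals 14.

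Acta1 (-0.06) turned to 0.21 with library totals, 0.18 by both limma fits, 0.03 and 0.05 with the replicate block (12 and 6 libraries), and ran from -0.60 to 0.79 on leaving out libraries or hearts. Sln (-1.47) turned to 0.69 and 1.35 by limma, 0.85 and 0.94 with the replicate block, and to 3.82 without the LV library of heart 1, and ran from -2.80 to 4.14 on leaving out libraries or hearts. Myl4 (-2.18) turned to 0.03 and Myl7 (-2.77) to 0.13 without that LV library, with ranges of -2.95 to 0.03 and -4.42 to 0.43. No other named gene changed sign. Depth limits genes near 1 TPM, and the nominal counts do not give their reads.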
